A study of Mus musculus with 8 samples.

Results

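A set of 10 miRNAs typical of myeloid, erythroid and vessel cells was followed in small RNA libraries of sorted CD8+ T cells. The rule that chose them is a list of names and uses no measured value, although earlier results of these data were known when it was drawn up. They comprised the myeloid mmu-miR-223-3p and mmu-miR-223-5p, the erythroid mmu-miR-451a, mmu-miR-144-3p, mmu-miR-144-5p, mmu-miR-486a-5p and mmu-miR-486b-5p, and the vessel-wall mmu-miR-126a-3p, mmu-miR-143-3p and mmu-miR-145a-5p. These were 10 of 1978 mature miRNA names in the table, and all 10 had at least 1 count in some library. The 8 libraries came from mouse spleen in 4 groups of 2 libraries, labelled WT TN, WT MP, mCre TN and mCre MP. CD8+ cells had been enriched on magnetic beads and then sorted by CD8, CD4, CD44, CD122 and a viability dye, to a stated purity of 97%, and RNA was extracted from 10000 sorted cells. The series' design text names the subsets TN and VM and the mice Cre- and WT. The labels give no expansion of TN, MP or mCre, no allele, no promoter for the Cre and no age for a single library, although the protocol speaks of both adult and newborn spleens. The labels do not state whether the 2 libraries of each group were made from separate mice, so p-values reflect only how far the deposited libraries differ, possibly for technical reasons.

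Each of these miRNAs is abundant in a cell type that spleen holds beside T cells. Neutrophils and monocytes make miR-223, and red cell precursors make miR-451a and miR-144 from 1 transcript and miR-486 from a red cell gene, so that mature red cells still carry miR-451a and miR-486. Endothelial cells make miR-126 from an intron of Egfl7, and smooth muscle cells and fibroblasts make miR-143 and miR-145. A library of sorted cells does not tell which of its cells made an miRNA. In bulk RNA, fewer cells of a type and less of an miRNA per cell cannot be told apart.

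The mature sequences show which molecules were counted, with the seed (bases 2 to 8, the stretch that pairs with target mRNAs) in capitals. Sequences are those of RefSeq on GRCm38.p6 and are printed for 6 of the 10 members.
mmu-miR-223-3p: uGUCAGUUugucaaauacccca
mmu-miR-223-5p: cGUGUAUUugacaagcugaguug
mmu-miR-451a: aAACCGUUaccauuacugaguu
mmu-miR-144-3p: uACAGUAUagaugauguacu
mmu-miR-144-5p: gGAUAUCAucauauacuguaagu
mmu-miR-126a-3p: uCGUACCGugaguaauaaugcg
No 2 of these 6 shared a seed, and no other of the 1679 mature miRNAs in the RefSeq table had the seed of any of them. Mir223 lies on the plus strand at chrX:96242817-96242926, within an exon of the noncoding F630028O10Rik. Mir144 (chr11:78073005-78073070) and Mir451a (chr11:78073170-78073241) lie on the plus strand with 99 bases between them, and Mir451b is annotated on the opposite strand of Mir451a. Mir126a (chr2:26591357-26591429, plus strand) overlaps an exon of an Egfl7 transcript and has Mir126b on its other strand. Mir486 (chr8:23142555-23142682, plus strand) and Mir3107 (chr8:23142573-23142662, minus strand), the precursors of mmu-miR-486a-5p and mmu-miR-486b-5p, overlap on opposite strands inside an intron of Ank1, which encodes ankyrin of the red cell membrane.

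The 2 hairpins below show the layout that the arm counts turn on, with the mature miRNAs in capitals.
Mir223: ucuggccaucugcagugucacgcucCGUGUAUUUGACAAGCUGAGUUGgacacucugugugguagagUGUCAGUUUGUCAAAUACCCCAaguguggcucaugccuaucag
Mir451a: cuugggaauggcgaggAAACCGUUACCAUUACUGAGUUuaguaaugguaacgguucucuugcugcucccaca
Mir223 carries a mature miRNA on each side of its loop, miR-223-5p first and miR-223-3p second. Mir451a carries a single mature miRNA that runs into the loop, since this precursor is cut by Argonaute 2 in place of Dicer, and so has no second arm to compare.

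Library totals ran from 1936600 to 5230975 miRNA counts, a 2.7-fold range, so that 3 counts, the limit that a count of 0 allows, were worth 0.574 to 1.55 CPM depending on the library. CPM (counts-per-million) values are relative to all miRNA counts of the library. Intervals on single libraries are 95% Wilson intervals, and these limits and intervals cover counting error only. A mature miRNA is read as a whole, so CPM needs no length correction, but adapter ligation takes up miRNAs unequally and levels of different miRNAs are compared only broadly. For scale, 8 lymphocyte reference miRNAs were counted (among them mmu-miR-150-5p, mmu-miR-142a-3p, mmu-miR-342-3p, mmu-miR-146a-5p and mmu-miR-181a-5p). Together they took 5.37% to 18.4% of the counts, and mmu-miR-150-5p alone took 3.84% to 15.2%. Whether this sum tells T cells from other blood cells was not tested. The label check with mmu-miR-29a-3p, of the family that the series title names, gave 3397 and 736 CPM in WT TN, 3487 and 10909 in WT MP, 1622 and 15196 in mCre TN and 734 and 1256 in mCre MP. It was lower in mCre than in WT in the MP libraries and in the first TN replicates, and higher in the library labelled mCre TN replicate 2 than in the library labelled WT TN replicate 2. The labels of those 2 libraries may therefore be exchanged, which the files used here cannot settle and which would alter every TN value by genotype. Comparisons that use TN libraries are also given without both, an alternative chosen after seeing the data.

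Together the 10 members made up 5368 of 25531767 counts over all libraries. Their summed level ran from 147 CPM in mCre TN replicate 1 to 308 CPM in mCre MP replicate 1, with a median of 218 CPM, which is 0.0147% to 0.0308% of a library. Counts of the lymphocyte miRNAs exceeded those of all members together by 189 to 933 times. The erythroid members were the most abundant of the 3 groups in every library, at 81.6 to 273 CPM (median 153). The vessel members followed at 22.2 to 107 CPM (median 47.2), and the myeloid members were lowest at 1.4 to 13.7 CPM (median 7.25). The order erythroid, vessel, myeloid held in all 8 libraries, with miR-486a-5p and miR-486b-5p at 97.3% of the erythroid counts. The other erythroid members, miR-451a and miR-144, had a summed median of 3.35 CPM, below the myeloid and vessel medians.

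**Figure D1:**
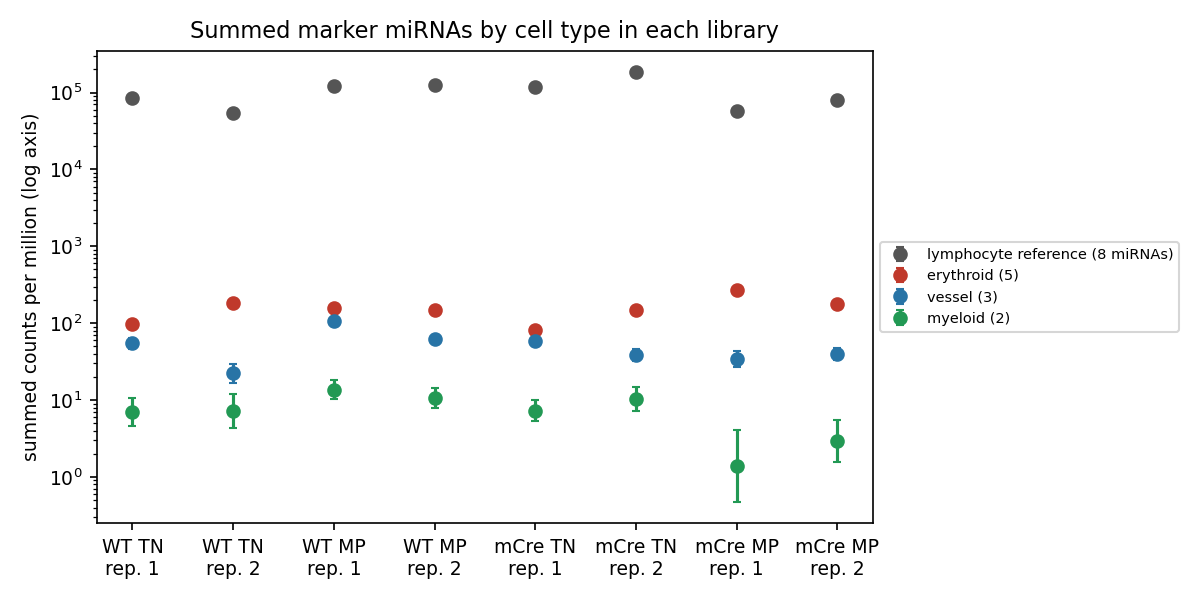
Summed CPM (log axis) of the lymphocyte reference miRNAs and of the erythroid, vessel and myeloid members in each of the 8 libraries. Bars are 95% Wilson intervals for counting error; the myeloid sums of the mCre MP libraries, 1.4 and 2.94, are the lowest points.

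Among the members, 1 miRNA family carried most of the signal. miR-486a-5p and miR-486b-5p held 67.9% of all member counts and 97.3% of the erythroid counts. By mean CPM over the 880 names with any count, mmu-miR-486a-5p and mmu-miR-486b-5p ranked 141 and 142, mmu-miR-126a-3p 177 and mmu-miR-143-3p 187. mmu-miR-223-3p ranked 308, mmu-miR-451a 325 and mmu-miR-223-5p 340. mmu-miR-144-5p, mmu-miR-145a-5p and mmu-miR-144-3p ranked 609, 629 and 814, and these 3 did not pass the filter on low counts, so that 7 of the 10 members entered the tests.

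**Figure D2:**
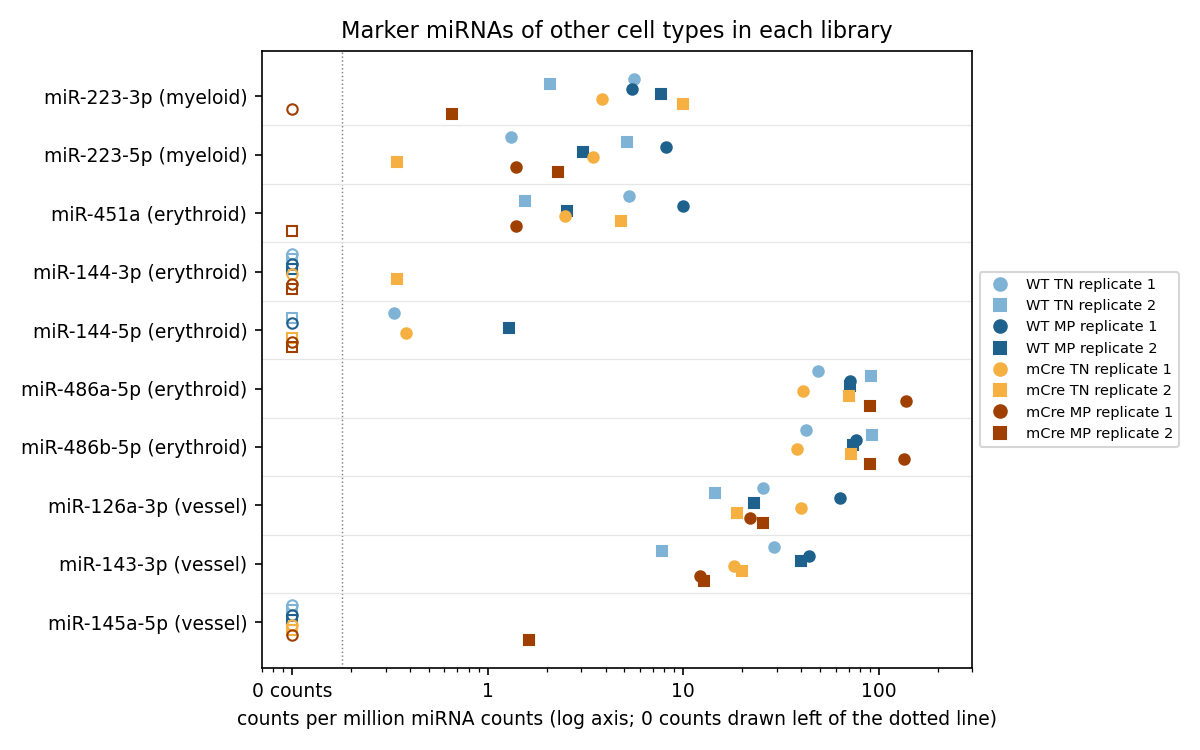
Level of each of the 10 members in each library, in CPM on a log axis, with libraries at 0 counts as open symbols left of the dotted line. miR-486a-5p and miR-486b-5p sit at 38.0 to 137, miR-126a-3p and miR-143-3p at 7.75 to 63.1, and miR-223 and miR-451a at 10 or less.

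miR-223 is a leading miRNA of neutrophils and restrains their activity. Its 3p arm, mmu-miR-223-3p, had 17 and 4 counts in WT TN, 18 and 30 in WT MP, 20 and 29 in mCre TN, and 0 and 2 in mCre MP. In CPM these were 5.62 and 2.07, 5.46 and 7.65, 3.82 and 9.93, and 0 and 0.653. Both mCre MP libraries lay under every other library, and the library at 0 counts allows up to 1.4 CPM. The next lowest, the library labelled WT TN replicate 2, rests on 4 counts. Its interval (0.803 to 5.31 CPM) overlapped that of mCre MP replicate 2 (0.179 to 2.38 CPM). Summed over libraries, mCre MP had 2 counts of mmu-miR-223-3p where mCre TN had 49, 15.6-fold lower in CPM (exact 95% interval 4.1 to 133), and where WT MP had 48, 17.3-fold lower (4.54 to 147). These intervals hold counting error only and not the spread between libraries. On unscaled CPM, 68.6% of all tested miRNAs did not overlap between mCre MP and WT MP, and 66.8% between mCre MP and mCre TN. The share of all miRNAs with both mCre MP libraries under every other library was not counted.

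The 5p arm, mmu-miR-223-5p, had 4 and 10 counts in WT TN, 27 and 12 in WT MP, 18 and 1 in mCre TN, and 3 and 7 in mCre MP. Its lowest level, 0.342 CPM, was in the library labelled mCre TN replicate 2, the library in which mmu-miR-223-3p was highest at 9.93 CPM. The groups overlapped except that both WT MP libraries, at 8.19 and 3.06 CPM, exceeded both mCre MP libraries, at 1.4 and 2.29 CPM. Between these 2 groups, 68.6% of all tested miRNAs did not overlap on unscaled CPM.

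Both arms are cut from the same hairpin, printed above. The 3p arm made up 59.4% of the 202 counts of both arms (Wilson 95% interval 52.5% to 65.9%), and 55.1% of 158 without both libraries labelled TN replicate 2. Its share was 81.0% and 28.6% in WT TN, 40.0% and 71.4% in WT MP, and 52.6% and 96.7% in mCre TN. In mCre MP it was 0 of 3 counts and 22.2% of 9. The interval of the library labelled WT TN replicate 2 (11.7% to 54.6%) did not overlap that of the library labelled mCre TN replicate 2 (83.3% to 99.4%), and neither did those of the WT MP replicates (27.0% to 54.5% and 56.4% to 82.8%). By comparison, mmu-miR-126a-3p made up 96.9% of both its arms over all libraries and 93.8% to 100% in each. The dominant arm mmu-miR-486a-5p stood at 94.9% and mmu-miR-143-3p at 99.7%.

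**Figure D3:**
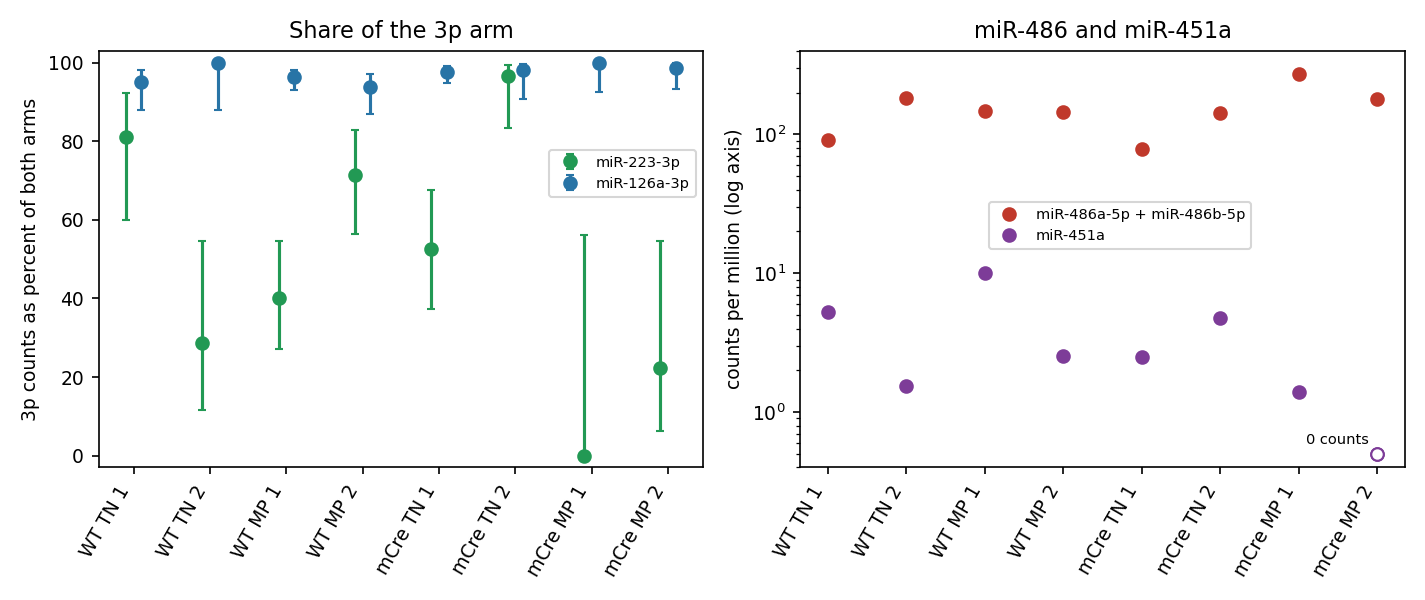
Left, counts of the 3p arm as percent of both arms of miR-223 and miR-126a in each library, with 95% Wilson intervals; miR-223-3p spans 0% to 96.7% while miR-126a-3p stays at 93.8% or above. Right, CPM (log axis) of miR-486a-5p plus miR-486b-5p and of miR-451a, with the library at 0 counts as an open symbol.

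miR-451a is among the most abundant miRNAs of mature red cells and is made only after slicing by Argonaute 2. It had 16 and 3 counts in WT TN, 33 and 10 in WT MP, 13 and 14 in mCre TN, and 3 and 0 in mCre MP. The levels were 5.29 and 1.55 CPM, 10 and 2.55 CPM, 2.49 and 4.79 CPM, and 1.4 and 0 CPM. As for miR-223-3p, both mCre MP libraries lay under the other 6, although 1.4 and 1.55 CPM rest on 3 counts each. The background is the same. On unscaled CPM, 68.6% of all tested miRNAs did not overlap between mCre MP and WT MP, and 66.8% between mCre MP and mCre TN. The 3 counts of mCre MP compare with 43 in WT MP, 10.3-fold lower in CPM (exact 95% interval 3.31 to 52.1, counting error only), and with 27 in mCre TN, 5.74-fold lower (1.77 to 29.6).

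miR-144, which shares the transcript of miR-451a, was at or near 0 counts. mmu-miR-144-3p had 1 count in all, in the library labelled mCre TN replicate 2. mmu-miR-144-5p had 1 count in WT TN replicate 1, 5 in WT MP replicate 2 and 2 in mCre TN replicate 1. The sum of miR-144 and miR-451a ran from 0 to 10 CPM with a median of 3.35 CPM.

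miR-486, from the ankyrin gene, followed another pattern. mmu-miR-486a-5p stood at 48.6 and 90.6 CPM in WT TN, 71.5 and 71.5 CPM in WT MP, 40.7 and 70.3 CPM in mCre TN, and 137 and 89.7 CPM in mCre MP. mmu-miR-486b-5p stood at 42.6 and 91.7, 76.0 and 73.8, 38.0 and 72.4, and 135 and 90.3 CPM in the same order. The copies cannot be counted apart with confidence: 5 of the 8 libraries held a count of mmu-miR-486a-5p that was not whole, and its share of the sum of both was 48.5% to 53.3% in every library. For both, mCre MP replicate 1 was the highest library and mCre TN replicate 1 the lowest, and the libraries labelled TN replicate 2 lay closer to the MP libraries than the TN replicate 1 libraries did.

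The erythroid members thus did not keep a fixed ratio. Counts of miR-486a-5p plus miR-486b-5p were 17.2 and 118 times those of miR-451a in WT TN, 14.7 and 57.0 times in WT MP, and 31.7 and 29.8 times in mCre TN. In mCre MP replicate 1 the ratio was 194, and in replicate 2 no ratio could be formed because miR-451a had 0 counts. Over all libraries the ratio was 39.6, and 38.3 without both libraries labelled TN replicate 2. Among the 7 libraries with a ratio, the highest was that of mCre MP replicate 1, which rests on 3 counts of miR-451a.

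miR-126a-3p, which supports vascular growth factor signalling in endothelial cells, was detected in every library. It stood at 25.5 and 14.5 CPM in WT TN, 63.1 and 23.0 CPM in WT MP, 40.1 and 18.8 CPM in mCre TN, and 22 and 25.5 CPM in mCre MP. In WT TN, WT MP and mCre TN the first replicate was higher than the second. On this unscaled CPM all groups overlapped with their counterparts of the other subset or genotype.

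miR-143-3p and miR-145a-5p are transcribed together in smooth muscle, where they maintain the contractile state. mmu-miR-143-3p stood at 29.1 and 7.75 CPM in WT TN, 43.7 and 39.8 CPM in WT MP, 18.2 and 19.9 CPM in mCre TN, and 12.1 and 12.7 CPM in mCre MP. WT MP was the highest group, and its libraries differed from the mCre MP libraries by more than the spread within either group. On this unscaled CPM, however, 68.6% of all tested miRNAs did not overlap between WT MP and mCre MP. mmu-miR-145a-5p was at 0 counts in 7 libraries and had 5 counts in mCre MP replicate 2, the library with 39 counts of mmu-miR-143-3p. Within libraries, the ratio of mmu-miR-143-3p to mmu-miR-126a-3p ran from 0.452 to 1.73.

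Whether MP cells differed from TN cells, with genotype as a term, was tested with edgeR's quasi-likelihood test over 382 miRNAs, with Benjamini-Hochberg adjustment. None of the 7 tested members passed an adjusted p of 0.05, against 9 of all 382 miRNAs (2.36%), and none had an unadjusted p under 0.05, against 50 of all. DESeq2 also called 0 members and called 26 miRNAs in all. SE values of edgeR fold changes were worked back from the test's F statistic, as the absolute log2 fold change over the square root of F. The log2 fold change (MP over TN) was 0.66 ± 0.49 (SE) for mmu-miR-486a-5p and 0.71 ± 0.50 for mmu-miR-486b-5p (edgeR adjusted p = 0.684 and 0.655). It was 0.59 ± 0.46 for mmu-miR-126a-3p, 0.52 ± 0.53 for mmu-miR-143-3p and 0.51 ± 0.85 for mmu-miR-223-5p. mmu-miR-223-3p had -1.10 ± 1.24 and mmu-miR-451a had -0.43 ± 1.09. 5 of the 7 were positive, with a median of 0.52 against -0.04 over all tested miRNAs. Here and in the comparisons below, the 7 count mmu-miR-486a-5p and mmu-miR-486b-5p as 2, although their counts cannot be told apart with confidence. The sum of these copies was not fitted without both libraries labelled TN replicate 2, so a call of 1 copy alone does not separate them. Counts of non-overlapping libraries use TMM-scaled CPM unless unscaled CPM is named. On TMM-scaled CPM, no member had its 4 MP libraries entirely on 1 side of its 4 TN libraries, which was so for 11.3% of all. Without both of the libraries labelled TN replicate 2, mmu-miR-486b-5p passed the test at 1.37 (edgeR adjusted p = 0.0389) while mmu-miR-486a-5p had 1.19 (adjusted p = 0.0713), and 49 of 433 miRNAs were called.

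The same contrast was made within each genotype. In WT, 0 of 7 members and 0 of 382 miRNAs (0%) passed edgeR's adjusted p of 0.05, with 0 and 31 at an unadjusted p under 0.05; DESeq2 called 10 miRNAs and 0 members. All 7 members had a positive log2 fold change in WT, beside 52.9% of all miRNAs, but 5 of 7 did under DESeq2, where mmu-miR-486a-5p had -0.21 and mmu-miR-486b-5p -0.11. On TMM-scaled CPM 3 members (mmu-miR-223-3p, mmu-miR-126a-3p and mmu-miR-143-3p) had both MP libraries above both TN libraries, where 39.5% of all miRNAs did not overlap. On unscaled CPM only mmu-miR-143-3p did, where 34.8% did not overlap. The log2 fold change of mmu-miR-143-3p was 1.33 ± 0.64 (edgeR adjusted p = 0.624). Without both libraries labelled TN replicate 2 it was 0.67, that of mmu-miR-223-5p went from 0.72 to 2.17, and 0 members and 14 of 433 miRNAs were called. In mCre, 0 of 7 members and 0 of 382 miRNAs (0%) passed, with 1 and 82 at an unadjusted p under 0.05; DESeq2 called 41 miRNAs and 0 members. mmu-miR-223-3p had -3.83 ± 1.29 (unadjusted p = 0.0183, adjusted p = 0.203) and mmu-miR-451a -2.18 ± 1.44 (adjusted p = 0.365), whereas mmu-miR-486a-5p had 1.30 ± 0.63 and mmu-miR-486b-5p 1.29 ± 0.67 (adjusted p = 0.241 and 0.271). Both MP libraries lay apart from both TN libraries for 5 of 7 members in mCre, 2 higher and 3 lower, but 65.2% of all miRNAs did so, and the members' share is close to that background. Without both libraries labelled TN replicate 2, mmu-miR-223-3p had -2.96 and mmu-miR-451a -1.73, and 0 members and 30 of 433 miRNAs were called.

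mCre was then set against WT. Over both subsets, 0 of 7 members and 0 of 382 miRNAs (0%) passed edgeR's test, with 0 and 5 at an unadjusted p under 0.05; calls by DESeq2 numbered 0. mmu-miR-451a had a log2 fold change (mCre over WT) of -1.20 ± 1.11 (edgeR adjusted p = 0.992), and -2.20 without both libraries labelled TN replicate 2, when 0 members and 27 of 433 miRNAs were called. In TN cells, 0 of 7 members and 0 of 382 miRNAs (0%) passed, with 0 and 12 at an unadjusted p under 0.05; DESeq2 gave 0 calls. There no member's libraries lay apart, against 22.5% of all miRNAs. Without both libraries labelled TN replicate 2, which leaves 1 library a group, 0 of 433 miRNAs were called and 4 of 7 members changed sign. mmu-miR-223-3p went from 0.92 to -0.46, mmu-miR-223-5p from -0.83 to 1.44, mmu-miR-451a from 0.16 to -0.99 and mmu-miR-143-3p from 0.15 to -0.59.

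Within MP cells, 0 of 7 members and 0 of 382 miRNAs (0%) passed edgeR's adjusted p of 0.05, and DESeq2 called 0. At an unadjusted p under 0.05 were 2 of 7 members and 41 of all 382. These were mmu-miR-223-3p, at -3.81 ± 1.29 (unadjusted p = 0.0186, adjusted p = 0.411), and mmu-miR-143-3p, at -1.49 ± 0.64 (unadjusted p = 0.0498, adjusted p = 0.411). mmu-miR-451a had -2.93 ± 1.44, mmu-miR-223-5p -1.26 ± 1.24 and mmu-miR-126a-3p -0.54 ± 0.62. mmu-miR-486a-5p and mmu-miR-486b-5p had 0.90 ± 0.62 and 0.83 ± 0.66. Without both libraries labelled TN replicate 2, mmu-miR-223-3p stayed at -3.81. Those libraries enter this comparison only through the filter, the scaling and the shared estimates of the fit. The median of the 7 was -1.26 against -0.23 over all tested miRNAs. Libraries lay apart for 6 of 7 members, 2 higher and 4 lower in mCre, beside 64.7% of all miRNAs. The log2 fold change of mmu-miR-223-3p ran from -7.40 to -2.93 when single libraries were left out, and that of mmu-miR-451a from -7.32 to -1.89; their mCre MP libraries hold 0 to 3 counts each.

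**Figure D4:**
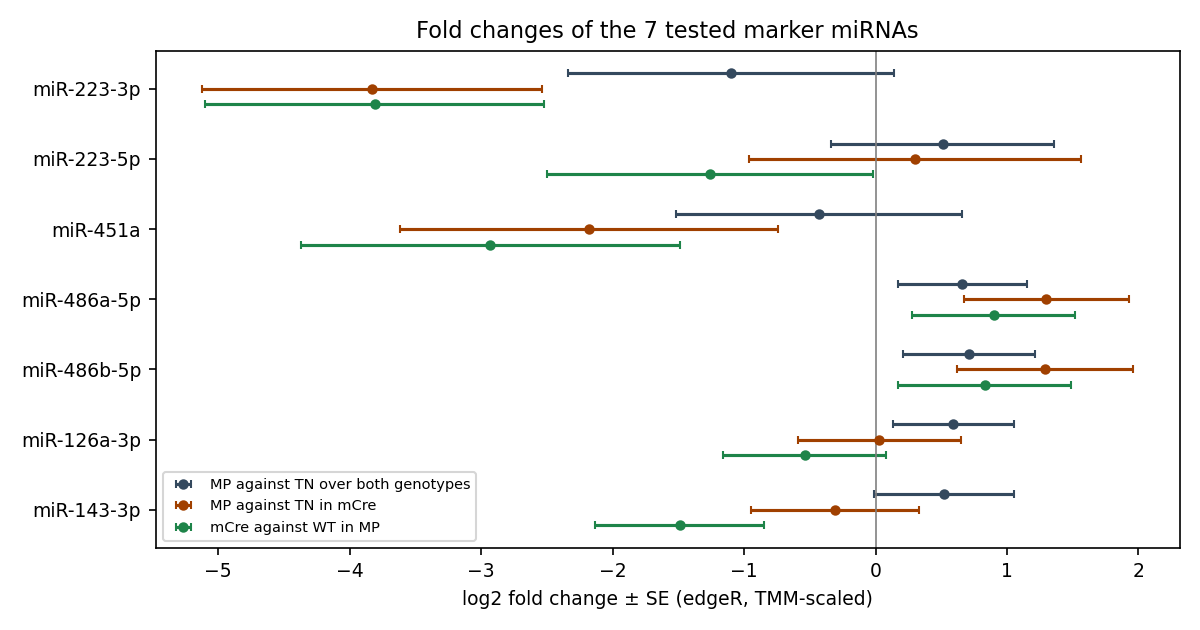
Log2 fold change ± SE (edgeR, TMM-scaled, 2 libraries a group) of the 7 tested members in MP against TN over both genotypes, MP against TN in mCre and mCre against WT in MP. The SE was worked back from the F statistic of the test. miR-223-3p lies at -3.83 and -3.81 in the last 2 comparisons and miR-486a-5p at 1.30 and 0.90, and none passed the adjusted threshold.

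The difference of the mCre effect between MP and TN was tested as an interaction. It was called for 0 of 7 members and 0 of 382 miRNAs (0%) by edgeR, with 1 and 54 at an unadjusted p under 0.05. DESeq2 called 18 miRNAs and 0 members. However, DESeq2 gave no adjusted p for mmu-miR-223-3p, mmu-miR-223-5p and mmu-miR-451a, so it could not call these members. The largest member value was that of mmu-miR-223-3p, -4.73 ± 1.66 (edgeR unadjusted p = 0.0218, adjusted p = 0.301), which was -3.34 without both libraries labelled TN replicate 2, when 0 of 433 miRNAs were called.

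The mCre MP libraries, in which mmu-miR-223-3p and mmu-miR-451a were lowest, were also set beside the others in further measures. Their totals were 2140363 and 3061370 counts, beside 1936600 to 5230975 in the other libraries. They had 420 and 522 miRNA names above 0, beside 485 to 655 in the others, so that the second lay within that range. The let-7 family with miR-98 took 64.0% and 60.2% of their counts, against 43.5% to 52.2% elsewhere except 69.5% in the library labelled WT TN replicate 2. Their lymphocyte miRNAs stood at 58154 and 79356 CPM, against 53721 in the library labelled WT TN replicate 2 and 85637 to 183587 in the other 5. The part of these measures in the marker values was not tested.

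Other miRNAs of the same cell types were counted for comparison. Of 4 further myeloid miRNAs (both arms of miR-511, of macrophages, and of miR-147), 3 had any count, mmu-miR-511-5p was at 0, and their sum ran from 0 to 8.78 CPM. None passed the filter on low counts. Their sum was 5.29 and 8.78 CPM in WT TN, 1.21 and 1.02 CPM in WT MP, 0.956 and 0.685 CPM in mCre TN, and 0 and 1.96 CPM in mCre MP. WT TN was highest, and the range of mCre MP spanned both other groups. Of 10 further vessel and stromal miRNAs, 9 had any count, mmu-miR-199b-5p was at 0, and the sum ran from 35.3 to 152 CPM, of which mmu-miR-10a-5p made up 93.1% over all libraries. The 8 lymphocyte miRNAs were all above the filter.

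The miRNAs whose levels ran most like those of the members over the 8 libraries, among the 381 others tested, are given as a description. Pearson's r of log2 CPM shares library and depth and carries no test. mmu-miR-223-3p was most like mmu-let-7i-3p (r = 0.97), mmu-miR-23b-3p (0.94) and mmu-miR-107-3p (0.94), and mmu-miR-223-5p most like mmu-miR-18a-3p (0.90), mmu-miR-5100 (0.87) and mmu-miR-222-3p (0.83). mmu-miR-451a came closest to mmu-miR-152-3p (0.86), mmu-miR-18a-5p (0.81) and mmu-miR-297a-3p (0.79). mmu-miR-486a-5p was closest to mmu-miR-486b-5p (1.0), then mmu-miR-1668 (0.92) and mmu-miR-320-3p (0.91), and mmu-miR-486b-5p, after its copy, to mmu-miR-1668 (0.91) and mmu-miR-1843a-3p (0.90). For mmu-miR-126a-3p the first were mmu-miR-425-5p (0.79), mmu-miR-5121 (0.79) and mmu-miR-6516-5p (0.77), and for mmu-miR-143-3p mmu-miR-191-5p (0.94), mmu-miR-221-3p (0.92) and mmu-miR-98-3p (0.91). None of these lists held another member of the same cell type, apart from the miR-486 copies. Between members, r was -0.11 for the arms of miR-223, -0.47 for mmu-miR-451a with mmu-miR-486a-5p, 0.51 for mmu-miR-126a-3p with mmu-miR-143-3p and 0.65 for mmu-miR-223-3p with mmu-miR-451a.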

How the data were processed

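Small RNA libraries of 8 sorted samples were made with a NEBNext small RNA kit, per the labels' protocols. The authors deposited 1 table of expected counts per miRNA row, aligned to mm10 per the submitters' processing notes; the sources used here name no aligner or counter. Some values are not whole, so counts were rounded for the tests after the rows of a name had been summed (85 of 1978 names stood in several rows). edgeR 4.0.16 (R 4.3.3) was run with TMM scaling on 382 miRNAs that passed its filter (minimum count 10, minimum total 15), with Benjamini-Hochberg adjustment at 0.05. Totals of 1936600 to 5230975 counts set the precision. An additive fit gave the comparisons over both genotypes or subsets, and a fit of 4 groups the others. Scripts were tested on simulated data that varied less between libraries than these data, and only for MP against TN over both genotypes. The alternatives were DESeq2 1.42.0, RLE and total count scaling, no filter, a replicate block, the largest row per name and single libraries left out. Summing miR-486a-5p with miR-486b-5p and leaving out both TN replicate 2 libraries were chosen after seeing the data. Without those libraries 433 miRNAs were tested, because the filter follows the smallest group, which then held 1 library. Named miRNAs are all members, their other arms, the lymphocyte references and, per member, the 3 miRNAs with the highest r of log2 CPM (prior count 2). Members and lists were chosen with earlier results of these data known.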

Additional observations from a re-analysis of the deposited data

How the results depend on the processing

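The count of members called stayed at 0 in 111 alternative fits; it was 1 (mmu-miR-486b-5p) in the other, for MP against TN over both genotypes without both libraries labelled TN replicate 2; over the alternatives of that comparison its adjusted p ran from 0.0389 to 0.99, and that of mmu-miR-486a-5p from 0.0713 to 0.996. Of the 49 fold changes of members, alternatives kept direction and call 706 times, 1 passed the test (mmu-miR-486b-5p above) and 63 changed sign; the cause was not tested. The 706 include DESeq2's difference of the mCre effect for mmu-miR-223-3p, mmu-miR-223-5p and mmu-miR-451a. These had no adjusted p and could not be called, so only their direction was kept. With DESeq2 and with RLE factors alike, mmu-miR-126a-3p in mCre against WT over both subsets was -0.04, and in MP against TN in WT mmu-miR-486a-5p was -0.21 and mmu-miR-486b-5p -0.11 (-0.27 and -0.17 with the largest row per name). With total count scaling mmu-miR-126a-3p was -0.15 over both subsets and -0.32 in MP against TN in mCre, where mmu-miR-223-5p was -0.08; without a filter mmu-miR-126a-3p was -0.05 and -0.14. Without both libraries labelled TN replicate 2 mmu-miR-126a-3p was -0.15 and -0.47 and mmu-miR-223-5p -0.57 in the same comparisons, and in mCre against WT among TN cells mmu-miR-223-3p was -0.46, mmu-miR-223-5p 1.44, mmu-miR-451a -0.99 and mmu-miR-143-3p -0.59. With single libraries left out, signs changed as follows. In MP against TN, mmu-miR-451a ran from -1.24 to 0.15 (positive without mCre MP replicate 2). In MP against TN in WT, mmu-miR-223-5p ran from -0.06 to 2.20, mmu-miR-451a from -0.13 to 1.80, mmu-miR-486a-5p from -0.48 to 0.74 and mmu-miR-486b-5p from -0.43 to 0.99. In MP against TN in mCre, mmu-miR-126a-3p ran from -0.47 to 0.47 and mmu-miR-223-5p from -0.57 to 2.44. In mCre against WT over both subsets, mmu-miR-126a-3p ran from -0.36 to 0.39, mmu-miR-486a-5p from -0.07 to 0.72 and mmu-miR-486b-5p from -0.08 to 0.75. Among TN cells, mmu-miR-143-3p ran from -0.41 to 1.11, mmu-miR-223-3p from -0.12 to 1.55, mmu-miR-223-5p from -3.07 to 0.76, mmu-miR-451a from -0.56 to 1.03, mmu-miR-486a-5p from -1.07 to 0.41 and mmu-miR-486b-5p from -1.13 to 0.59. Among MP cells, mmu-miR-126a-3p ran from -1.03 to 0.07 (positive without WT MP replicate 1). For the difference of the mCre effect, mmu-miR-223-5p ran from -1.99 to 1.70. Where 1 library was left out of a group of 2, the lone library is assumed to vary like the other groups. Summed as 1 miRNA, the miR-486 copies had log2 fold changes of 0.58 (MP over TN), -0.23 (in WT, where the separate copies had 0.02 and 0.13), 1.38 (in mCre) and 1.05 (mCre over WT in MP). With the 5 most abundant miRNAs left out of the total, which makes the denominator smaller, the median sums were 18.9 CPM (myeloid), 368 (erythroid) and 115 (vessel). The replicate block left 0 members called, moved mmu-miR-223-3p in mCre against WT among MP cells to -3.93, and took the calls among all miRNAs for MP against TN from 9 to 2; deviations of same-numbered libraries correlated at -0.32 to 0.407, so the numbers were not taken as pairs. Depth limits mmu-miR-223-3p, mmu-miR-223-5p and mmu-miR-451a, with 0 to 33 counts a library.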

Other observations

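Markers of tissues outside the blood were also present at low levels. mmu-miR-122-5p, the main miRNA of liver cells, had 436 counts in all and stood at 5.13 to 33.6 CPM (median 17.9), above mmu-miR-223-3p in 6 of 8 libraries and above mmu-miR-451a in 8 of 8. All 6 miRNAs of liver, muscle and brain that were counted (mmu-miR-122-5p, mmu-miR-1a-3p, mmu-miR-133a-3p, mmu-miR-206-3p, mmu-miR-9-5p and mmu-miR-124-3p) had at least 1 count in some library, and their sum ran from 14.0 to 38.8 CPM, beside 1.4 to 13.7 CPM for the myeloid members. mmu-miR-10a-5p, encoded in a Hox gene cluster, stood at 30.8 to 147 CPM and above mmu-miR-126a-3p in 8 of 8 libraries. No source for these miRNAs was tested.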
